A study of Mus musculus with 12 samples.

Results

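The 34 genes described here encode the T cell receptor and the proteins through which T cells recognise antigen, transmit the signal and acquire their identity. They were chosen by gene symbol from known function, with earlier results of these data known. They are 8 chains of the receptor complex, 3 coreceptor chains, 6 signalling proteins, 10 surface and costimulatory receptors and 7 transcription factors. Each symbol matched 1 of the 59136 entries of the count table through GENCODE M21 (mouse build GRCm38, the same assembly as mm10), and all 34 passed the filter on low counts that left 19004 genes for testing. The libraries are bulk messenger RNA from mouse lung, 12 in all and all labelled day 28: 6 are labelled WT (replicates 1, 3, 4, 5, 6 and 7) and 6 Mut (replicates 1, 2, 3, 4, 5 and 7). The series text gives Mut as Iars1 Tyr148Cys/Arg444*, changes in the cytosolic isoleucyl-tRNA synthetase, while the genotype label of the same samples calls them a knockdown. The sources used here give neither strain nor sex nor the cells that carry the change, and the labels name both lung and primary cells without saying whether each library came from its own mouse. The p-values therefore measure the spread between these libraries, which may be technical in part.

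Library totals ran from 17118716 to 24014890 counted reads. Sftpc, the surfactant gene that marks alveolar type 2 cells, read at least 9030 CPM (counts scaled to the library total) in every library, so the lung label held. Iars1 itself, annotated as Iars, ranged from 35.6 to 58.4 CPM in WT and from 41.4 to 71.6 CPM in Mut, and the difference was not called (adjusted p = 0.189). Read counts per gene do not show either sequence change. CPM values are scaled by TMM, a method that corrects library totals for composition. Log2 fold changes are Mut minus WT from edgeR's quasi-likelihood test, and a gene is called when its Benjamini-Hochberg adjusted p over all 19004 genes is under 0.05.

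The T cell receptor is a pair of variable chains, alpha and beta or gamma and delta, that bind antigen but cannot signal alone. They travel to the surface with the CD3 chains and the zeta chain, whose tails are phosphorylated by Lck, a kinase brought in by the coreceptors CD4 or CD8, and then bind the kinase Zap70, which phosphorylates the adaptor Lat. CD4 marks helper and regulatory T cells and CD8 marks cytotoxic T cells. In the lung, naive T cells pass through the blood vessels, while memory, regulatory and gamma delta T cells also reside in the tissue. In bulk lung RNA, fewer cells of a type and less RNA per cell cannot be told apart.

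Most of these T cell genes were lower in the Mut lungs, by between 1.37-fold (Satb1) and 2.09-fold (Cd8b1) where called. Of the 34 genes, 23 were lower (67.6%, against 5.31% of all genes tested) and 0 were higher (against 4.57%). At an unadjusted p under 0.05 the edgeR test had 28 of the 34 lower and 0 higher. At that cutoff 5256 of all 19004 genes passed, in either direction, so every unadjusted count given here has a high background. DESeq2 and limma-voom also called 0 of the 34 higher. The median of the 34 genes was −0.67, on the log2 scale, beside 0.01 for all genes tested, and 33 of the 34 values were negative. In 9 genes every Mut library lay below every WT library (against 2.39% of all genes tested), and in 0 every Mut library lay above (against 2.18%). Per length, in the deposited FPKM values, the highest levels in WT were those of Trbc2 at 34.4 ± 6.72, Trbc1 at 23.8 ± 5.08 and Tcf7 at 20.97 ± 1.24 FPKM (SD, n = 6), and the lowest was that of Foxp3 at 0.274 ± 0.0869 FPKM. In Mut the order at the top changed, with Tcf7 first at 17.4 ± 4.71 FPKM and Trbc2 next at 17.2 ± 2.99 FPKM. Those FPKM values of Tcf7 and Trbc2 in Mut lie within their spread of each other.

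**Figure D1:**
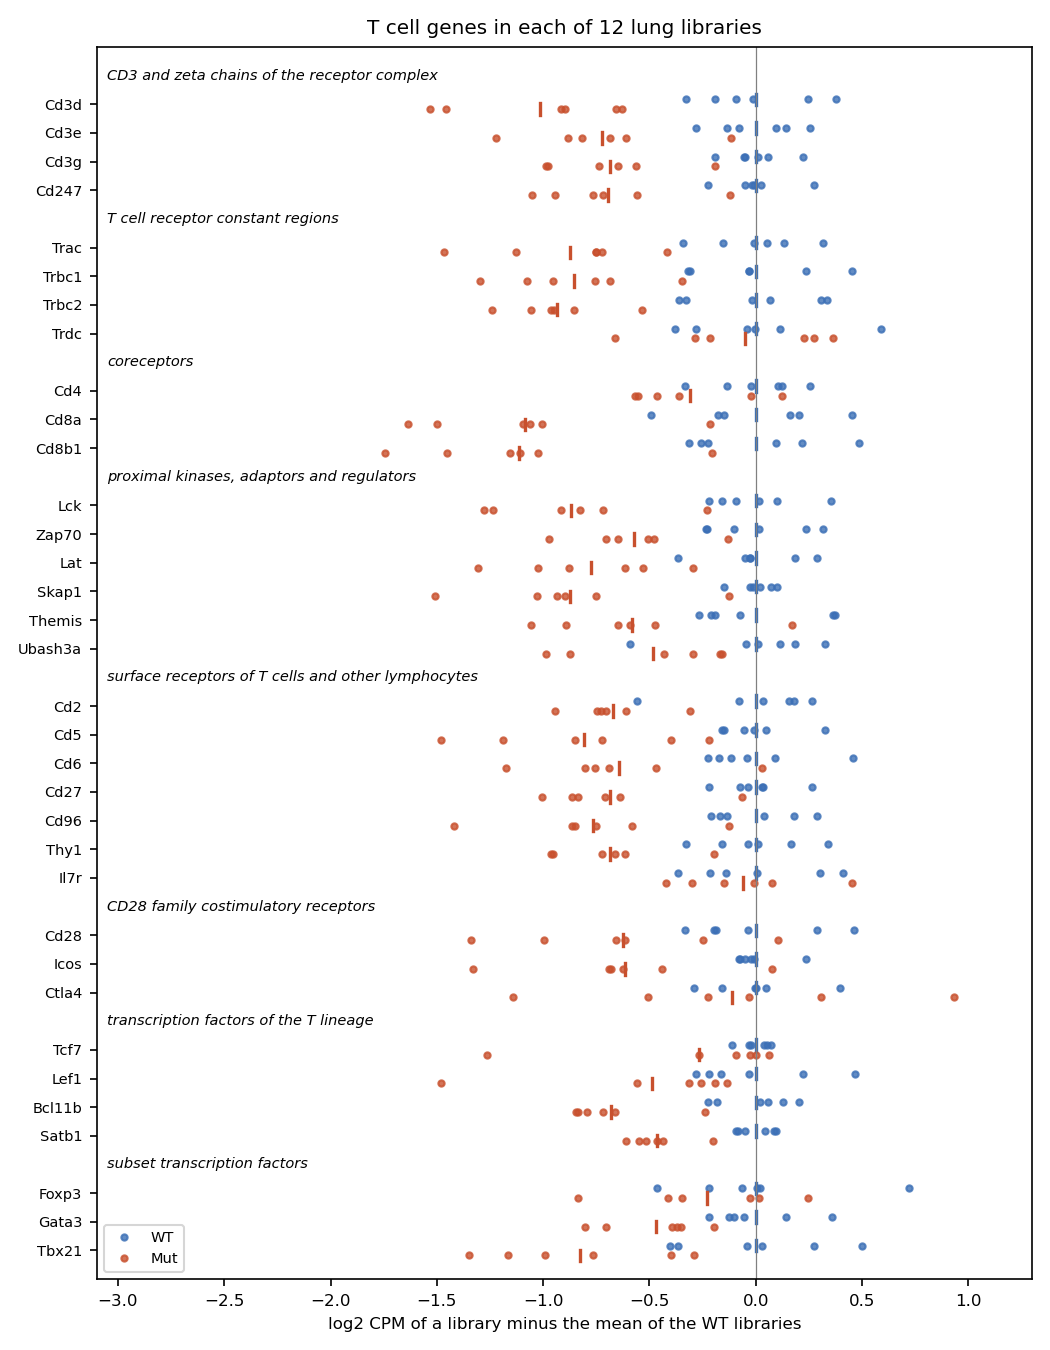
Each row is 1 gene, each point 1 library (blue WT, red Mut, 6 each), and the x axis is its log2 CPM minus the mean of the WT libraries; short bars are group means. Most red points lie to the left of the blue ones for the CD3, alpha beta receptor and CD8 genes, with 1 Mut library often near the WT range, and overlap them for Trdc, Il7r, Ctla4 and Foxp3.

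All 4 signalling chains of the receptor complex fell. Cd3d, the CD3 delta chain (ENSMUSG00000032094, chr9:44981786-44987339, plus strand), had its lowest, median and highest values at 10.2, 12.4 and 16.7 CPM in WT and at 4.43, 6.85 and 8.33 CPM in Mut. The groups did not overlap, and the change was 1.99-fold (log2 fold change −0.99 with SE 0.17, adjusted p = 0.00389). Cd3g, the gamma chain (ENSMUSG00000002033, chr9:44969572-44980431, minus strand), read 13.98, 15.7 and 18.6 CPM in WT and 8.04, 9.87 and 13.96 CPM in Mut, and here too every Mut library lay below every WT library, replicate 1 only just (log2 fold change −0.66 with SE 0.13, adjusted p = 0.00711). For Cd3e, the epsilon chain (ENSMUSG00000032093, chr9:44998740-45009627, minus strand), WT read 9.14, 11.2 and 13.3 CPM and Mut 4.76, 6.61 and 10.3 CPM. Replicate 1 of Mut, at 10.3 CPM, was the 1 Mut library inside the WT range (log2 fold change −0.70 with SE 0.16, adjusted p = 0.0155). Cd247, which encodes the zeta chain also used by natural killer cells, fell from 10.99 ± 1.26 to 6.91 ± 1.71 CPM (SD, n = 6 per group; log2 fold change −0.67 with SE 0.15, adjusted p = 0.0124). On chromosome 1 its annotated exons share 3007 of 5329 bases with Pou2f1 on the opposite strand. The labels name no step that marks the strand, so reads of Cd247 and Pou2f1 may be mixed.

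Cd3d and Cd3g are transcribed away from each other from starts 1355 bases apart, and Cd3e lies next to them on chromosome 9. The 250 bases before these starts are shown because the 3 neighbouring genes fell together, beside Lck, which fell, and Il7r, which was not called. Sequences are from RefSeq (GRCm38.p6), 5′ to 3′ on the gene's strand, and capitals mark the letters AGGAAG, a core of ETS family sites, or TGTGGT, a core of RUNX family sites, on either strand.
Cd3d, chr9:44981536-44981785, plus strand: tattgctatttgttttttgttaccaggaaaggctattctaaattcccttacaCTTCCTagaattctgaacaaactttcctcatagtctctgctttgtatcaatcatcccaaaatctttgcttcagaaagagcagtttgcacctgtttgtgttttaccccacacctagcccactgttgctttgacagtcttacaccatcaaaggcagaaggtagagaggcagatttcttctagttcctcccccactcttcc
Cd3g, chr9:44980432-44980681, minus strand: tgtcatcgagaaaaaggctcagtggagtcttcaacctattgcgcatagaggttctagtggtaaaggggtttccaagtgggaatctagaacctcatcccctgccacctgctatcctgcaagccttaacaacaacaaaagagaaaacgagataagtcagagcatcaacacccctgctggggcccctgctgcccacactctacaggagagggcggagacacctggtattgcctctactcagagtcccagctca
Cd3e, chr9:45009612-45009861, minus strand: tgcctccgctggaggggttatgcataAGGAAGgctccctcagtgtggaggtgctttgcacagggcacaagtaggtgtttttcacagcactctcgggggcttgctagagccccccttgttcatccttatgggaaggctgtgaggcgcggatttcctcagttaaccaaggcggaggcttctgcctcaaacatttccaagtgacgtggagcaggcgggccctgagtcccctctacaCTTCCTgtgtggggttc
Lck, upstream start, chr4:129573642-129573891, minus strand: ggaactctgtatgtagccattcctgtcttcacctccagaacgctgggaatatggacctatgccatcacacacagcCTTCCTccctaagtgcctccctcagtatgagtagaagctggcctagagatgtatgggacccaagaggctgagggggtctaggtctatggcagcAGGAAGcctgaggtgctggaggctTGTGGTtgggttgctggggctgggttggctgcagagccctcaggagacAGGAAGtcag
Il7r, chr15:9529877-9530126, minus strand: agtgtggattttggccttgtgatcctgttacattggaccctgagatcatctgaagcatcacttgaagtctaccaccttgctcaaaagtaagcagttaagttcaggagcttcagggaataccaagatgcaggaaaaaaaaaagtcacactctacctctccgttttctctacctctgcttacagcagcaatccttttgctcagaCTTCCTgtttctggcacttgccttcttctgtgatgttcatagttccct
The AGGAAG letters occur 1 time in the Cd3d window, 2 times for Cd3e, 3 times for Lck, 1 time for Il7r and 0 times for Cd3g. Windows of Cd8a and of the downstream Lck start were also searched and are not printed. The Cd8a window held AGGAAG 0 times and TGTGGT 0 times, and that Lck window held AGGAAG 1 time and TGTGGT 0 times. In the Cd3e window the match nearest the start has its last base 12 bases before the start, and in Il7r 43 bases before. The table of promoters held 35 windows of 22 of the 34 genes. AGGAAG was in 15 of these windows (42.9%) and in 29.5% of all 32851 windows of the same length, and TGTGGT was in 3 (8.57%) and in 14.05%. CTTTGA or CTTTGT, cores of sites for Tcf7 and Lef1, were in 11 windows (31.4%) and in 27.6% of all windows. CAGGTG, a form of the E-box bound by E proteins, was in 10 (28.6%) and in 17.2%. A match is only a description of the sequence, and windows of 1 gene can overlap.

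Constant regions of the alpha and beta chains fell, and that of the delta chain did not pass. Trbc2, the constant region of beta chains joined to the downstream cluster (ENSMUSG00000076498, chr6:41546730-41548352, plus strand), read 17.9, 23.4 and 28.98 CPM in WT and 9.72, 11.8 and 15.8 CPM in Mut. With no overlap of the groups, this was a 1.92-fold change and the smallest p among the 34 genes (log2 fold change −0.94 with SE 0.14, adjusted p = 0.00189). Trbc1, the copy upstream of it, fell by 0.85 on the log2 scale (adjusted p = 0.00694). The annotated transcripts share 40.5% of the 50-base windows of Trbc1 and 44.01% of those of Trbc2, so reads may be split between the copies. Trac, the alpha constant region (ENSMUSG00000076928, chr14:54220521-54224206, plus strand), read 11.9, 15.4 and 18.8 CPM in WT and 5.45, 8.97 and 11.3 CPM in Mut, again without overlap (log2 fold change −0.85 with SE 0.16, adjusted p = 0.00541). Trdc, the delta constant region of gamma delta T cells, which natural killer cells also transcribe (ENSMUSG00000104876, chr14:54142851-54148868, plus strand), read 1.61, 2.06 and 3.16 CPM in WT and 1.31, 2.13 and 2.70 CPM in Mut. Of the Mut libraries 5 lay inside the WT range and replicate 5 lay below it (log2 fold change −0.04, 95% confidence interval −0.49 to 0.41, adjusted p = 0.926).

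Both CD8 chains fell by about 2-fold, the largest decreases of the 34 genes, while Cd4 was not called. Cd8a, the alpha chain of the coreceptor of cytotoxic T cells, which some dendritic cells also carry (ENSMUSG00000053977, chr6:71373427-71379173, plus strand), read 16.1, 22.96 and 31.2 CPM in WT and 7.29, 10.8 and 19.6 CPM in Mut. All Mut libraries but replicate 1 (19.6 CPM) lay below every WT library (log2 fold change −1.04 with SE 0.21, adjusted p = 0.00862). Cd8b1, the beta chain, largely restricted to conventional T cells (ENSMUSG00000053044, chr6:71322788-71337494, plus strand), read 12.4, 14.9 and 21.6 CPM in WT and 4.59, 7.03 and 13.4 CPM in Mut (log2 fold change −1.07 with SE 0.22, adjusted p = 0.00892). Replicate 1 of Mut, at 13.4 CPM, again stood inside the WT range, and replicate 4 of Mut was lowest for both chains. Cd4, the coreceptor of helper and regulatory T cells (ENSMUSG00000023274, chr6:124864692-124888221, minus strand), read 6.997, 9.09 and 10.5 CPM in WT and 5.94, 6.62 and 9.61 CPM in Mut. Of the Mut libraries 4 lay below every WT library and 2 lay within the WT range, and the difference did not pass (log2 fold change −0.30, 95% confidence interval −0.61 to 0.01, adjusted p = 0.201).

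**Figure D2:**
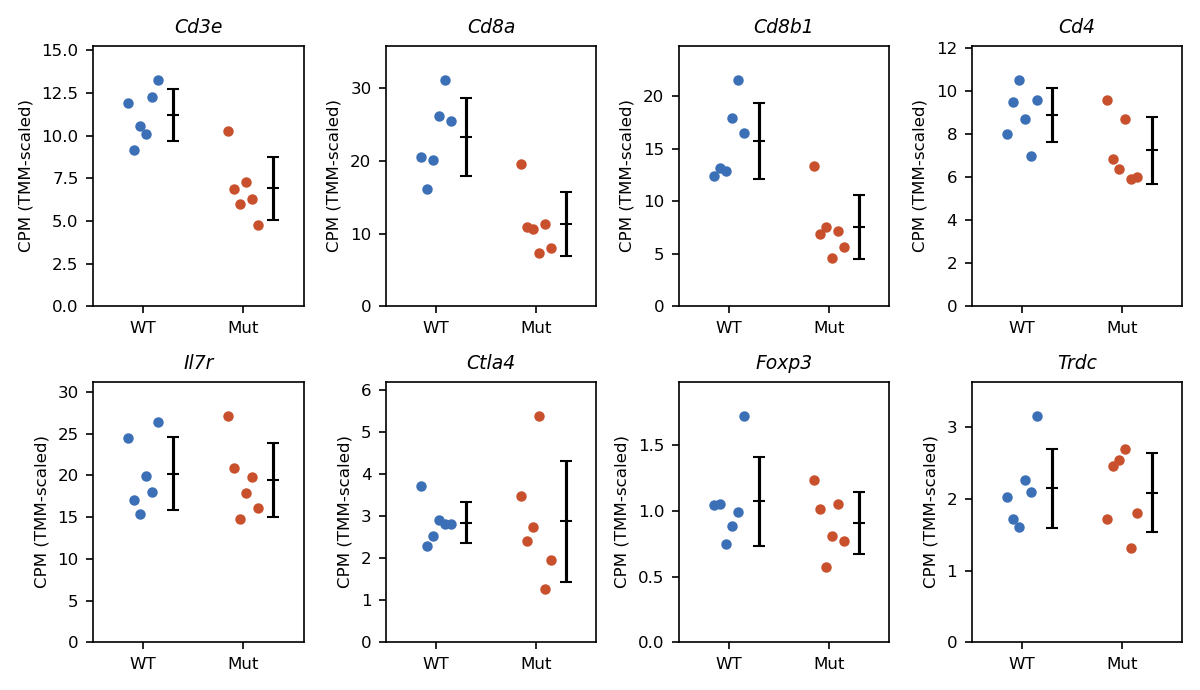
TMM-scaled CPM of 8 genes in the 6 WT (blue) and 6 Mut (red) libraries, with mean and SD as bars and every y axis starting at 0. Cd8a fell from a mean of 23.3 to 11.3 CPM, while Il7r read 20.2 and 19.4 CPM.

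Of the 6 genes of the proximal signalling step, 4 fell. Lck, the kinase that starts the cascade (ENSMUSG00000000409, chr4:129548344-129573641, minus strand), read 27.8, 31.6 and 41.4 CPM in WT and 13.3, 17.7 and 27.6 CPM in Mut, and Mut replicate 1 lay just under the lowest WT library (log2 fold change −0.84 with SE 0.16, adjusted p = 0.00573). Lat, the membrane adaptor that Zap70 phosphorylates, fell from 17.7 ± 2.70 to 10.5 ± 2.60 CPM (SD, n = 6 per group; adjusted p = 0.00957). Skap1, an adaptor that links the receptor to integrin adhesion, varied little among WT libraries (8.57 ± 0.516 CPM) and read 4.86 ± 1.62 CPM in Mut (log2 fold change −0.82 with SE 0.18, adjusted p = 0.0106). Zap70, the kinase that docks on the phosphorylated chains, fell by 0.57 on the log2 scale (adjusted p = 0.0279), a call that ended without Mut replicate 5 or WT replicate 6 (largest adjusted p 0.0678). Themis, needed for thymic selection, and Ubash3a, a phosphatase family protein that dampens receptor signals, had values of −0.55 (adjusted p = 0.0835) and −0.48 (adjusted p = 0.119) and were not called.

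Among surface receptors shared by T cells and other lymphocytes 6 of 7 fell, and Il7r was the exception. Cd2, an adhesion receptor also carried by natural killer cells and mouse B cells, fell from 24.3 ± 4.46 to 15.1 ± 2.30 CPM (SD, n = 6 per group; log2 fold change −0.68 with SE 0.13, adjusted p = 0.00704). Thy1, the T cell surface protein that fibroblasts and nerve cells also make, stood at −0.68 on the log2 scale (adjusted p = 0.00831). Cd27, a costimulatory receptor of the tumour necrosis factor receptor family, had −0.66 (adjusted p = 0.0165). Cd5 and Cd6, scavenger-type receptors that tune receptor signals, had −0.76 (adjusted p = 0.0215) and −0.62 (adjusted p = 0.0435). Cd96, a receptor of T and natural killer cells, had −0.73 (adjusted p = 0.0240). The Cd5 call ended without WT replicate 6 and that of Cd96 without Mut replicate 5 or WT replicate 6 (largest adjusted p 0.0522 and 0.0535). With 1 of the 12 libraries left out at a time, Cd6 kept its call in 3 fits, those without Mut replicate 1, Mut replicate 4 or WT replicate 7 (largest adjusted p in the others 0.101). Il7r, the interleukin 7 receptor of naive and memory T cells and of innate lymphoid cells (ENSMUSG00000003882, chr15:9505788-9530176, minus strand), read 15.4, 18.96 and 26.4 CPM in WT and 14.8, 18.8 and 27.2 CPM in Mut. The highest value of all 12 was that of Mut replicate 1, Mut replicate 3 was the lowest, and the other 4 Mut libraries lay inside the WT range (log2 fold change −0.06, 95% confidence interval −0.39 to 0.28, adjusted p = 0.847).

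None of the 3 receptors of the CD28 family was called by edgeR, though 2 of them had an unadjusted p under 0.05; DESeq2 called 2 lower (Cd28 and Icos) and limma-voom 1 (Icos). Cd28, the main costimulatory receptor of naive T cells, stood at −0.58 on the log2 scale (SE 0.21, adjusted p = 0.0945). Icos, induced on activated and follicular helper T cells, read 8.29, 8.54 and 10.3 CPM in WT and 3.47, 5.56 and 9.23 CPM in Mut. Of the Mut libraries 5 lay below every WT library, and the difference missed the threshold (log2 fold change −0.56 with SE 0.17, adjusted p = 0.0529). It was called under 8 of the 10 other settings that keep all libraries. Ctla4, the inhibitory receptor high on regulatory T cells, read 2.30, 2.81 and 3.72 CPM in WT and 1.26, 2.58 and 5.40 CPM in Mut. Mut replicate 4, at 5.40 CPM, was the highest of the 12 libraries and Mut replicate 5, at 1.26 CPM, the lowest. The log2 fold change of 0.01 (95% confidence interval −0.56 to 0.58, adjusted p = 0.986) became −0.28 without Mut replicate 4 (adjusted p = 0.449).

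Of the 4 transcription factors that set the T lineage, Bcl11b and Satb1 fell and Tcf7 and Lef1 were not called. Bcl11b, which commits precursors to the T lineage and is also active in group 2 innate lymphoid cells, read 10.2, 12.3 and 13.8 CPM in WT and 6.65, 7.08 and 10.1 CPM in Mut, with Mut replicate 1 just under the lowest WT library (log2 fold change −0.68 with SE 0.12, adjusted p = 0.00527). Satb1, a chromatin organiser high in T cells and also expressed outside them, read 34.01, 36.1 and 38.8 CPM in WT and 23.8, 25.8 and 31.6 CPM in Mut, again without overlap. Its decrease was the smallest of the called genes and the most precisely measured (log2 fold change −0.46 with SE 0.08, adjusted p = 0.00396). Tcf7, which encodes TCF1 of naive and memory T cells, read 49.9, 54.3 and 56.8 CPM in WT and 22.5, 51.8 and 56.4 CPM in Mut. Of the Mut libraries 4 lay inside the WT range, replicate 5 lay below it and replicate 7 far below, at 22.5 CPM (log2 fold change −0.21 with SE 0.16, adjusted p = 0.425). Without that library the log2 fold change was −0.06 (adjusted p = 0.588). Lef1, the partner of Tcf7 in naive T cells, also had its lowest value in Mut replicate 7, at 6.22 CPM, and its log2 fold change went from −0.45 (adjusted p = 0.141) to −0.31 without it (adjusted p = 0.148). Which cells of the lung gave the reads of Tcf7 and Lef1 was not tested.

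Among the subset factors, Tbx21 and Gata3 fell and Foxp3, with few reads, was not called. Tbx21, the T-bet factor of type 1 helper, cytotoxic and natural killer cells, read 3.87, 5.11 and 7.27 CPM in WT and 1.997, 2.79 and 4.19 CPM in Mut, with 4 Mut libraries below every WT library (log2 fold change −0.82 with SE 0.21, adjusted p = 0.0248). That call ended without Mut replicate 2, Mut replicate 5, WT replicate 5 or WT replicate 6 (largest adjusted p 0.0595). Gata3, the factor of type 2 helper T cells and innate lymphoid cells, fell from 11.5 ± 1.79 to 8.31 ± 1.29 CPM (SD, n = 6 per group; log2 fold change −0.47 with SE 0.13, adjusted p = 0.0346). With 1 of the 12 libraries left out at a time, its call held in 4 fits, those without Mut replicate 3, Mut replicate 4, WT replicate 6 or WT replicate 7 (largest adjusted p in the others 0.0790). Foxp3, the factor that defines regulatory T cells (ENSMUSG00000039521, chrX:7573644-7595245, plus strand), had only 11 to 30 reads per library. Its CPM values were 0.745, 1.02 and 1.73 CPM in WT and 0.571, 0.914 and 1.23 CPM in Mut, overlapping, with a log2 fold change of −0.24 (95% confidence interval −0.76 to 0.28, adjusted p = 0.550). That interval holds both no change and the decrease of Cd3e. Exons of Flicr on the same strand and Ppp1r3f on the other overlap those of Foxp3, so part of these reads may not be its own.

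**Figure D3:**
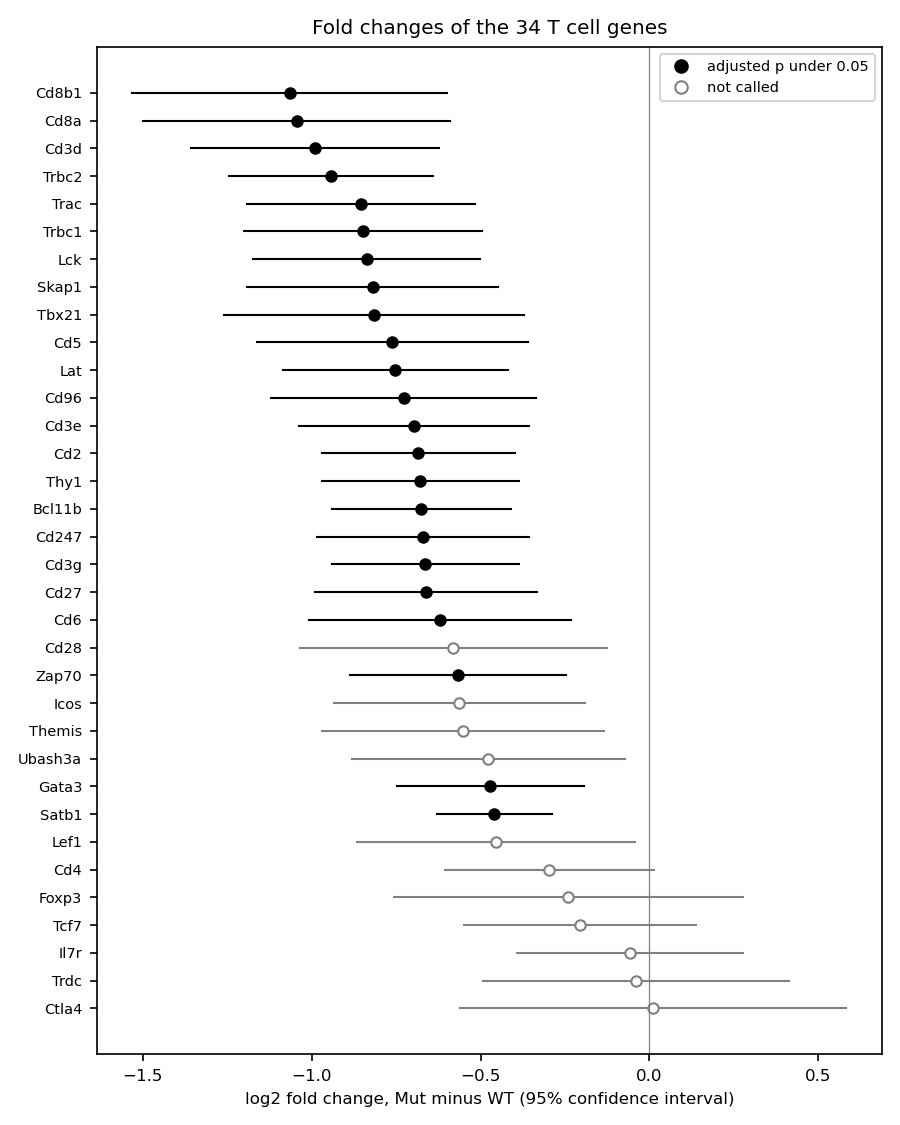
Log2 fold changes (Mut minus WT) of the 34 genes with 95% confidence intervals, ordered by size; filled points are the 23 called genes. The values run from 0.01 for Ctla4 at the bottom to −1.07 for Cd8b1 at the top.

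To ask whether subsets moved by unequal amounts, 16 ratios of reads between pairs of genes were compared over the libraries, in which library scaling cancels. Each was tested with a two-sided exact permutation test that runs through the 924 ways to place 12 libraries in groups of 6, and p-values were adjusted over the 16. The ratios were chosen with earlier results of these data known, which the p-values do not take into account. Which cells gave the reads of each gene was not tested, so a ratio need not describe subsets of T cells. Reads of Cd8b1 fell relative to those of Cd4. The Cd8b1/Cd4 ratio had lowest, median and highest values of 1.22, 1.63 and 3.08 in WT and 0.529, 1.10 and 1.39 in Mut, a difference of −0.81 on the log2 scale, 95% interval −1.45 to −0.22 (exact permutation test, p = 0.00433, adjusted p = 0.0346). Below the WT mean lay 6 of 6 Mut libraries, and 5 lay below every WT library. This call held in 4 of the 12 tests that each left out 1 library, those without WT replicate 3, WT replicate 4, Mut replicate 1 or Mut replicate 5 (adjusted p up to 0.110 in the others). The Cd8a/Cd4 ratio differed by a similar amount, −0.78 on the log2 scale, 95% interval −1.42 to −0.19, and did not pass (exact permutation test, p = 0.0130, adjusted p = 0.0693), though without WT replicate 3 it did (adjusted p = 0.0433).

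Reads of Il7r rose relative to those of Cd3e. The Il7r/Cd3e ratio was 1.46, 1.92 and 2.06 in WT and 2.45, 2.83 and 3.38 in Mut, higher in all 6 Mut libraries than in every WT library (0.66 on the log2 scale, 95% interval 0.38 to 0.94). That was the smallest p the design can give (exact permutation test, p = 0.00216, adjusted p = 0.0346). The ratio was called in all 12 tests that each left out 1 library. Groups that do not overlap stay apart whichever library is left out, so those 12 calls add no support. Other ratios to Cd3e were higher in Mut without passing, and since they share that gene they are not independent. They were Cd4/Cd3e (0.41 on the log2 scale, 95% interval 0.057 to 0.78, exact permutation adjusted p = 0.0693), Tcf7/Cd3e (0.46 on the log2 scale, 95% interval 0.099 to 0.82, exact permutation adjusted p = 0.0693), Foxp3/Cd3e (0.49 on the log2 scale, 95% interval 0.076 to 0.90, exact permutation adjusted p = 0.0693), Ctla4/Cd3e (0.61 on the log2 scale, 95% interval 0.030 to 1.17, exact permutation adjusted p = 0.0808) and Lef1/Cd3e (0.23 on the log2 scale, 95% interval −0.22 to 0.70, exact permutation adjusted p = 0.338). Cd4/Cd3e passed without WT replicate 3 (adjusted p = 0.0433) and Ctla4/Cd3e without Mut replicate 5 (adjusted p = 0.0173). The Cd8a/Cd3e ratio was lower (−0.36 on the log2 scale, 95% interval −0.75 to −0.003, exact permutation adjusted p = 0.0808).

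The delta chain was then set against the alpha chain. The Trdc/Trac ratio was 0.0984, 0.146 and 0.212 in WT and 0.146, 0.294 and 0.359 in Mut, and 4 of 6 Mut libraries lay above every WT library, without passing after adjustment (0.82 on the log2 scale, 95% interval 0.20 to 1.45, exact permutation test, p = 0.0195, adjusted p = 0.0693). Trbc1/Trbc2 differed by 0.08 on the log2 scale, 95% interval −0.15 to 0.31, and did not pass (exact permutation adjusted p = 0.496); since reads may be split between these copies, this ratio does not measure which constant region was used. Neither Icos/Cd28 (0.01 on the log2 scale, 95% interval −0.53 to 0.54) nor Tbx21/Gata3 (−0.35 on the log2 scale, 95% interval −0.89 to 0.17) passed (exact permutation adjusted p = 0.968 and 0.217). Set against other lymphocytes, the Cd3e/Cd79a ratio of a T to a B cell gene was 0.124, 0.216 and 0.369 in WT and 0.239, 0.272 and 0.357 in Mut (0.45 on the log2 scale, 95% interval −0.19 to 1.07, exact permutation adjusted p = 0.217), with the groups overlapping. Cd3e/Ncr1, against a natural killer cell receptor, and Cd3e/Ptprc, against the leukocyte phosphatase CD45, differed by −0.41 on the log2 scale, 95% interval −1.12 to 0.30 and by −0.23 on the log2 scale, 95% interval −0.73 to 0.22 (exact permutation adjusted p = 0.312 and 0.381).

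**Figure D4:**
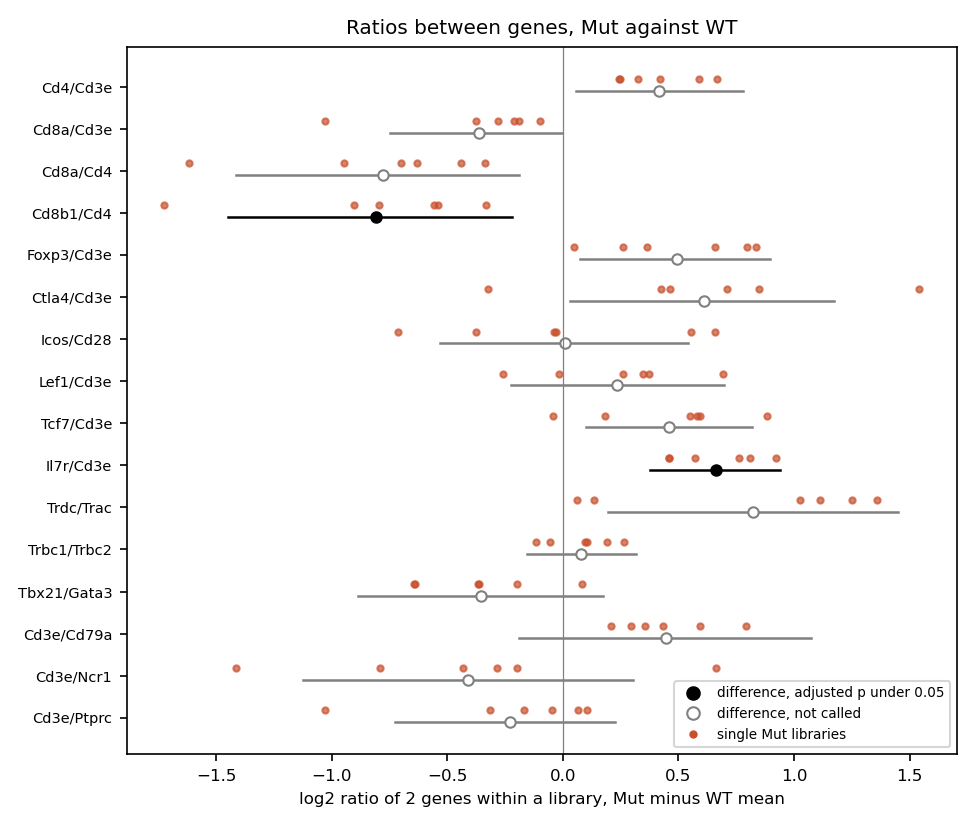
Differences in log2 read ratio between Mut and WT for 16 gene pairs with 95% intervals from the exact permutation test (black and grey) and the 6 single Mut libraries relative to the WT mean (red). Il7r/Cd3e, at 0.66, and Cd8b1/Cd4, at −0.81, are the called ratios.

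Other genes of the receptor pathway mostly fell where they passed. Of 32 further signalling genes, 14 fell (against 5.31% of all genes tested) and 1 rose (against 4.57%), and their median was −0.38 on the log2 scale. Among those with the smallest p were Vav1, an exchange factor for small GTPases (28.5 ± 2.997 to 17.6 ± 1.81 CPM; −0.69, adjusted p = 9.15e-04), Rhoh, a GTPase-deficient regulator of Lck and Zap70 (−0.97, adjusted p = 0.00222), and the adaptor Lax1 (−0.80, adjusted p = 0.00274). B cells use Vav1 and Lax1 as well, and which cells gave the reads of Vav1, Rhoh and Lax1 was not tested. The 1 that rose, named after its value was seen, was Cblb, a ubiquitin ligase that restrains T cell activation (0.36, adjusted p = 0.0404).

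Homing genes of naive and recirculating T cells fell in 3 of 10 (against 5.31% of all genes tested) and rose in 0 (against 4.57%), with a median of −0.32. DESeq2 and limma-voom also called 0 of them higher, and the unadjusted count of higher genes was 0. Ccr7, the chemokine receptor that guides cells into lymph nodes and that naive B cells also carry, fell from 26.04 ± 5.85 to 13.99 ± 3.81 CPM (−0.90, adjusted p = 0.00815). Ms4a4b, a T cell membrane protein, stood at −0.62, adjusted p = 0.0255 on the same scale, and Klf2, the factor that maintains recirculation but is also high in endothelium, −0.45, adjusted p = 0.148. Of 12 tested genes of regulatory T cells 0 fell (against 5.31% of all genes tested) and 0 rose (against 4.57%) by edgeR (median −0.20). At an unadjusted p under 0.05 2 were lower and 0 higher, where 5256 of all 19004 genes passed in either direction. DESeq2 called 1 lower and limma-voom 0. The smallest p values were those of Izumo1r, the folate receptor 4 gene (−0.72, adjusted p = 0.0772), Gpr83 (−0.70, adjusted p = 0.0866), Ikzf4 (−0.33, adjusted p = 0.197) and Lrrc32, which presents latent TGF-beta and is also made by endothelium (0.31, adjusted p = 0.217).

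Of 20 tested genes of effector, memory and resident T cells 2 fell (10%, against 5.31% of all genes tested) and 1 rose (against 4.57%), with a median of −0.13. The 1 higher gene is about the share over all genes. Cd69, a retention and activation marker, fell (14.3 ± 2.43 to 8.35 ± 2.21 CPM; −0.77, adjusted p = 0.0109), as did Eomes, a factor of cytotoxic T and natural killer cells (−1.12, adjusted p = 0.0433). Cxcr3, the receptor of type 1 T cells, was not called (−0.53, adjusted p = 0.0887). The cytokine genes Ifng, Il2, Il5, Il13, Il17a and Il21, named after their values were seen, lay under the filter on low counts, with at most 16 reads in a library for Ifng and 0 for Il17a. In the gamma delta and innate-like list 2 of 8 tested genes fell (against 5.31% of all genes tested) and 0 rose (against 4.57%), with a median of −0.10. At an unadjusted p under 0.05 3 were lower and 2 higher, where 5256 of all 19004 genes passed in either direction. Those that fell were 5830411N06Rik (−1.17, adjusted p = 0.00748) and Blk, a kinase that B cells share (−0.99, adjusted p = 0.00968). The gamma constant region Tcrg-C2 stood at −0.48, adjusted p = 0.110. Zbtb16, the factor of innate-like T cells that many other cells express, had 1.64, adjusted p = 0.0810, and DESeq2 and limma-voom each called 1 gene of this list higher. Cd163l1, a scavenger receptor gene of gamma delta T cells named after its value was seen, ranged over the 6 WT libraries from 1.96 to 5.52 CPM and over the 6 Mut libraries from 2.05 to 10.2 CPM. The groups overlapped and the difference was not called (0.76 on the log2 scale, 95% confidence interval 0.002 to 1.53, adjusted p = 0.180).

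Markers of B cells, and some of natural killer cells, were also lower, and their part in the T cell values was not tested. Of 12 B cell genes 12 fell (against 5.31% of all genes tested), with a median of −1.04. Cd79a, the B cell receptor chain, fell from 56.2 ± 17.3 to 24.6 ± 6.02 CPM. The summed level of the 12 genes was 334 to 592 CPM in WT and 189 to 297 CPM in Mut. Of 13 natural killer cell genes 5 fell (against the same 5.31%), with a median of −0.39. Their sums were 132 to 251 CPM in WT and 70.2 to 138 CPM in Mut. Most of the WT sum came from Gzma, Ccl5, Nkg7 and Gzmb (means of 58.2, 41.7, 18.9 and 17.2 CPM). The natural killer cell genes with the smallest p were Ccl5 (−1.02, adjusted p = 0.00327), Nkg7 (−0.91, adjusted p = 0.0181), Gzma (−1.05, adjusted p = 0.0233) and Gzmb (−1.49, adjusted p = 0.0321), genes of cytotoxic cells that CD8 T cells also use. Ncr1, the receptor that defines natural killer cells, was not called (3.75 ± 0.657 to 3.21 ± 1.17 CPM; −0.22, adjusted p = 0.563). Of 7 genes of group 2 innate lymphoid cells 1 fell (against 5.31% of all genes tested) and 1 rose (against 4.57%). Klrg1, which effector T and natural killer cells share, fell (−1.002, adjusted p = 0.0187). Rora, which is widely expressed, rose (0.47, adjusted p = 0.00809). Il1rl1, Il17rb, Areg, Il9r and Hs3st1 were not called. Genes of leukocytes in general fell in 6 of 7 (against 5.31%, median −0.56), including Coro1a (−0.88, adjusted p = 0.00162) and Ptprc (−0.48, adjusted p = 0.0252).

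Dendritic cell genes, some of whose cells carry Cd8a or Cd4, fell in 0 of 7 by edgeR, and rose in 0 (unadjusted 0 and 0, DESeq2 0 and 0, limma-voom 0 and 0). Over all genes tested 5.31% were lower and 4.57% higher, so 0 calls among 7 genes is near those shares. The summed level of the 7 was 131 to 160.0 CPM in WT and 121 to 173 CPM in Mut. Most of it came from Zbtb46 and Clec9a (means of 55.4 and 64.6 CPM in WT), the latter named after its value was seen. The sum therefore says little about the other genes of this list. Whether dendritic cells gave the reads of Zbtb46 and Clec9a was not tested. Siglech (−0.49, adjusted p = 0.211) and Batf3 (−0.45, adjusted p = 0.222) were negative and the other 5 positive, none called. Fibroblast genes, whose cells can make Thy1, rose in 2 of 6 (against 4.57% of all genes tested), Pdgfra (0.45, adjusted p = 0.0258) and Dcn (0.61, adjusted p = 0.0269). The sum of the 6 was 3194 to 4607 CPM in WT and 3114 to 4898 CPM in Mut. Thymus genes were near the limit of counting. The 8 thymocyte and thymic epithelium genes summed to 4.32 to 6.05 CPM in WT and 2.37 to 4.86 CPM in Mut, and the thymocyte genes Ptcra, Rag2 and Dntt, named after their values were seen, had at most 3, 7 and 9 reads in a library. Of the 3 tested, 1 fell (against 5.31% of all genes tested), Ccr9 (−0.84, adjusted p = 0.00974). Rag1 (−1.20, adjusted p = 0.0581) and Arpp21 (0.30, adjusted p = 0.692) were not called. The 5 genes of lymphoid organ stroma summed to 1.27 to 2.36 CPM in WT and 0.841 to 2.06 CPM in Mut, and the 1 tested, Cxcl13, was not called (−0.28, adjusted p = 0.442).

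**Figure D5:**
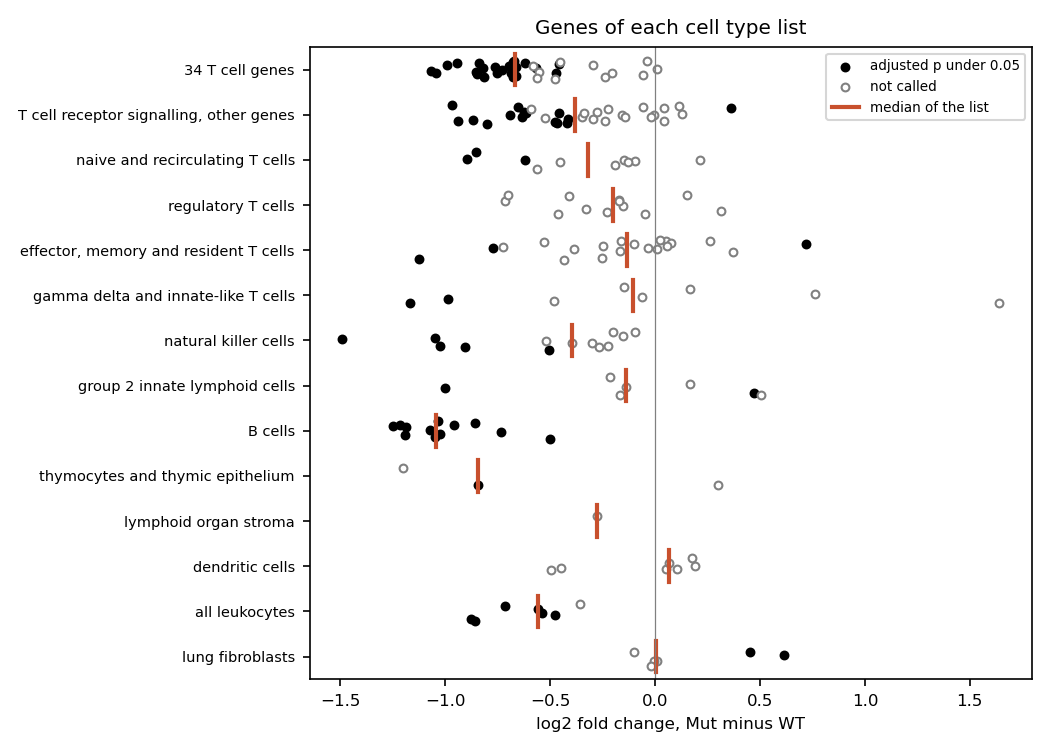
Log2 fold changes (Mut minus WT) of the 34 T cell genes and of the tested genes of each cell type list, 1 point per gene, filled where the adjusted p is under 0.05; red bars are list medians. The medians are −0.67 for the T cell genes, −1.04 for B cells, −0.39 for natural killer cells and 0.07 for dendritic cells.

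The Mut libraries were not alike. Over the 34 genes the median log2 CPM relative to the WT mean was −0.18 in Mut replicate 1 and between −0.95 (replicate 5) and −0.62 (replicate 4) in the other 5, while WT libraries ran from −0.21 (replicate 3) to 0.24 (replicate 6). Mut replicate 1 was the highest of the Mut libraries in 29 of the 34 genes, and Mut replicate 5 the lowest in 16. Asns, a strongly raised stress response gene named after its value was seen, ranged from 96.6 to 166 CPM over all 6 Mut libraries against at most 21.1 CPM in WT. Without Mut replicate 1, 25 of the 34 genes were called and the median was −0.78. Without Mut replicate 5 or WT replicate 6, 18 were called. Mut replicate 7, the most deeply sequenced library and the lowest for Tcf7, Lef1, Cd3e and Trac, also had GC-rich genes low against GC-poor genes, by −0.25 in median log2 CPM relative to all libraries (upper against lower quartile of GC). WT replicate 4 stood at 0.29 and the other 10 libraries between −0.10 and 0.06. WT replicate 4 also had long genes low against short ones (−0.49, the other libraries −0.16 to 0.33). The part of these differences in the T cell values was not tested beyond leaving out each library, where 21 genes stayed called without Mut replicate 7 and 21 without WT replicate 4.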

How the data were processed

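Messenger RNA of 12 mouse lung libraries was measured. The deposited count table gives raw read counts by gene, which its whole numbers and unequal totals show. The deposited FPKM table was made by the authors from these counts, scaled to library total and gene length. The build mm10 and limma are named, per the submitters' processing notes, without a role or version; the aligner, the counting program, its strand setting and its annotation are not given in the sources used here. Entries that match no annotated gene (4690, 0.585% to 0.868% of the counts) were kept in library sizes and tests, under the authors' own names.

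Counts were filtered with filterByExpr (minimum count 10, minimum total 15), scaled by TMM (factors 1.0007 to 1.0414 in WT and 0.9677 to 0.9903 in Mut, which do not overlap) and tested with edgeR 4.0.16 (robust quasi-likelihood test, genotype as the only term) in R 4.3.3. Ratios used log2 of count + 0.5, and their 95% intervals invert the exact permutation test. Alternatives used DESeq2 1.42.0, limma 3.58.1, other scalings, filters and log2(FPKM + pseudocount). The edgeR fit was tested on simulated data, with 5 false calls among 18522 unchanged genes. It recovered 21 of 58 genes changed 1.5-fold, 33 of 39 at 2-fold, 52 of 52 at 3-fold and 43 of 44 at 4-fold. Changes of 1.5-fold were thus often missed there. No replicate pair agreed within sampling noise (chi-square per gene of at least 6.38). The labels give no batch. The 34 genes, the other lists, the ratios and the rule for named genes (all 34, the 4 smallest p of each other list, the genes of the ratios) were chosen with earlier results of these data known. Some genes that the rule names are counted in their lists but not reported here.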

Additional observations from a re-analysis of the deposited data

Results flagged for a closer look

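In 4 of the 68 combinations of a T cell gene and a group, 1 of the 6 libraries stood apart from the other 5 by more than Dixon's 95% limit on the log2 CPM scale, and chance alone flags about 1 in 20. Tcf7 read 22.5 CPM in Mut replicate 7 against at least 44.8 CPM in the other Mut libraries. In the same library Lef1 read 6.22 CPM against at least 11.8 CPM. Bcl11b read 10.1 CPM in Mut replicate 1, above the 7.56 CPM of the next. Icos read 10.3 CPM in WT replicate 6, above the 8.69 CPM of the next.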

How the results depend on the processing

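With all libraries kept, the 23 T cell genes called lower were called under each of the 9 other scalings, filters and tests, which called 23 to 26 of the 34, none higher. Foxp3 had no value in the FPKM fits, whose filter it did not pass. Leaving out 1 library gave 18 to 25, and 957 to 2368 calls over all genes against 1879 (869 higher and 1010 lower). With library totals alone, chosen after seeing the data, the balance over all genes was 518 higher and 1513 lower, with 648 and 1242 under upper-quartile scaling and 337 and 1242 on log2(FPKM + 1). With the replicate number as a block 0 of the 34 were called by edgeR (adjusted p from 0.0548) and 107 genes in all. In that fit 25 of the 34 were lower at an unadjusted p under 0.05, a cutoff whose count over all genes is not given here. The median of the 34 was −0.62 on the log2 scale. The labels do not say what the replicate numbers stand for. Deviations of same-numbered libraries correlated between −0.14 and 0.11 over 5 pairs, and 1 of 5 WT libraries correlated best with its own number. So few pairs cannot show whether same-numbered libraries share an origin. On the 5 same-numbered pairs, where no p under 0.0625 is possible, the Il7r/Cd3e ratio differed by 0.59 and Cd8b1/Cd4 by −0.65.

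Values near 0 changed sign, none of them called. The Ctla4 log2 fold change was −0.051 with library totals, −0.12 by limma-voom, −0.15 on log2(FPKM + 0.1), −0.061 on log2(FPKM + 1), −0.012 with no low-count filter, −0.061 with the replicate block, −0.029 under upper-quartile scaling, and −0.28 to 0.16 over the fits that left out 1 library. Those of Trdc ran from −0.14 to 0.10 and of Il7r from −0.17 to 0.033, and the Icos/Cd28 ratio from −0.12 to 0.15. Over the same tests Cd8b1/Cd4 ran from −0.91 to −0.63, Cd8a/Cd4 from −0.90 to −0.61, Cd4/Cd3e from 0.32 to 0.49 and Ctla4/Cd3e from 0.42 to 0.80. The cause was not tested. Depth limits Foxp3, Trdc and Ctla4 most, with fewest reads of 11, 25 and 24 in a library.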
